A study of Mus musculus with 28 samples.

Results

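The transcripts of the BATF family (Batf, Batf2, Batf3) and of the AP-1 factors Jun, Junb, Jund, Fos, Fosb, Fosl2 and Atf3 were followed through dendritic cells sorted from mouse spleen. These 10 genes were chosen by name from the 55487 genes of the series. Each had 1 row in both count tables, and all 10 passed the filter on low counts in both experiments. RNA came from C57BL/6 mice, and every group had 2 libraries, described in the series as biological duplicates. Experiment 1 held 8 groups, which were hybrid DC from Irf8 +32H/H (H/H) and Irf8 +32H/+ (H/+) mice and cDC1 and cDC2 from H/H, H/+ and WT mice. Experiment 2 held 6 groups, which were hybrid DC from H/H mice with Zeb2 -165d123, hybrid DC and cDC1 from H/H mice with Nfil3-/-, hybrid DC and cDC1 from H/H mice, and cDC1 from WT mice. The Zeb2 and Nfil3 alleles therefore always stood on the H/H background. The labels describe neither the change in the +32H and -165d123 alleles nor the sort gates, the sex or age of the mice, or the number of mice behind a library.

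AP-1 factors are basic leucine zipper proteins that bind DNA as dimers of a JUN protein with a FOS, ATF or BATF protein. FOS, FOSB, JUN, JUNB and ATF3 are classical immediate early genes, whose transcripts appear within minutes of stimulation or stress and do not need new protein synthesis. BATF proteins lack the transactivation domain of FOS and act with JUN proteins and with IRF4 or IRF8 at composite AP-1 and IRF motifs. In mouse cDC1, BATF3 acts with IRF8 at the +32 kb enhancer of Irf8, which keeps Irf8 expressed once the lineage is chosen. Mice without Batf3 lack most splenic cDC1, and BATF or BATF2 can take its place when their levels are raised.

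The libraries held 23393658 to 38174301 counts in experiment 1 and 17540512 to 22708519 in experiment 2. Levels are given in CPM, counts scaled to library size with TMM factors. The loci that carry the alleles went with the labels. Irf8 averaged 834 ± 4.26 CPM in H/H cDC1, against 2269.8 ± 438 CPM in WT cDC1 of experiment 1 (SD, n = 2 each, as for all means below). Nfil3 averaged 3.22 ± 0.652 CPM in Nfil3-/- cDC1, against 36.3 ± 0.871 CPM in H/H cDC1, and 5.66 ± 0.0538 CPM in Nfil3-/- hybrid cells, against 48.4 ± 9.73 CPM in H/H hybrid cells. Zeb2 averaged 14.9 ± 6.55 CPM in Zeb2 -165d123 hybrid cells, against 42.8 ± 5.89 CPM in H/H hybrid cells. Summed markers of cDC1 without Batf3 (17 genes) were 8979.7 to 9066 CPM in H/H hybrid cells, 16461 to 17705 CPM in WT cDC1 and 1097 to 1174 CPM in WT cDC2 of experiment 1. Xist, the RNA of the inactive X chromosome of female cells, exceeded 10 CPM in 8 libraries of experiment 1, which were replicate 2 of each of its 8 groups, and in 3 libraries of experiment 2, which were replicate 2 of the Zeb2 -165d123 and both Nfil3-/- groups. In these bulk samples fewer cells of a type and less RNA per cell cannot be told apart.

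On GRCm38 several members are neighbours. Batf3 and Atf3 lie on chromosome 1 with 61350 bp between them, in converging orientation (Batf3 191097847 to 191108945, + strand, and Atf3 191170296 to 191218039, - strand). Fos (12, 85473890 to 85477273) and Batf (12, 85686669 to 85709087) lie on the + strand of chromosome 12 with 209395 bp between them. Jun is a single exon of 3189 bp on chromosome 4 (95049034 to 95052222, - strand). Jund is likewise a single exon of 1668 bp on chromosome 8 (70698949 to 70700616, + strand), and Junb lies on the same chromosome (84974484 to 84978718, - strand). Fosb lies on chromosome 7 (19302696 to 19310051, - strand), Fosl2 on chromosome 5 (32135801 to 32157842, + strand) and Batf2 on chromosome 19 (6140983 to 6172476, + strand). The library kit did not mark strand, so strand cannot tell the reads of overlapping genes apart, and reads over shared exons may be counted for either gene. Prdx2, which shares 173 bp of exon with Junb, held 77.8 to 206 CPM in experiment 1. Arl2, which shares 51 bp with Batf2, held 18.8 to 25.8 CPM there. Junos, antisense to Jun over 232 bp, and Gm11175, antisense to Jund over 877 bp, stayed at or below 1.47 CPM and 0.338 CPM in both experiments.

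The promoters of the members were read for AP-1 and CRE motifs, because AP-1 dimers bind the promoters of several AP-1 genes. RefSeq start sites on GRCm38.p6 gave a window of 300 bases (250 before to 50 after the start) for 9 members, all but Batf2. The letters TGANTCA (AP-1), TGACGTCA (CRE), TGACGT (the core of the CRE, which every full CRE also holds) and TGACATCA (the JUN type AP-1 site) were searched on both strands. They occur in 7.81%, 1.79%, 7.51% and 3.62% of 32851 promoter windows, in that order. Of the 9 members 4 held a match, each a single one, and those are shown 5′ to 3′ with the match in capitals. The Fos window, chr12:85473640-85473939 (+ strand), holds TGACGT from base -66 counted from the start.
Fos: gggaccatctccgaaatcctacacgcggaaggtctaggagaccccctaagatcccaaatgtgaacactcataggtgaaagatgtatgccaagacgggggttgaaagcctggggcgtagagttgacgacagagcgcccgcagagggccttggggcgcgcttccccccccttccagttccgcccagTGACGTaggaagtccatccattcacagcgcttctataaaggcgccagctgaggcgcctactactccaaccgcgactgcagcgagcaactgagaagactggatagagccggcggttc
The Jun window, chr4:95052173-95052472 (- strand), holds TGACATCA from base -45.
Jun: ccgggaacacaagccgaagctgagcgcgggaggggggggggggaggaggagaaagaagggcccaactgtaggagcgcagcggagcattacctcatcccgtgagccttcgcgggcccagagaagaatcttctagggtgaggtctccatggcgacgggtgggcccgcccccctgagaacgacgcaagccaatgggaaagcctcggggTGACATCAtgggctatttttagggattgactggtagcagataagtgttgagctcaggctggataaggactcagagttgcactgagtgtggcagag
The Atf3 window, chr1:191183284-191183583 (- strand), holds TGACGT on the opposite strand, so that ACGTCA is seen from base -8.
Atf3: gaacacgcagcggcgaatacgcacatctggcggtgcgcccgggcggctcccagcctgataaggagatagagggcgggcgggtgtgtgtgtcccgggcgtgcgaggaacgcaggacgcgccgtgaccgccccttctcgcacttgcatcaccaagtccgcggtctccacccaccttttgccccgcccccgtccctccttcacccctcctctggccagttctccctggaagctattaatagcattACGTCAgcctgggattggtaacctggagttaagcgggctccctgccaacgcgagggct
The Batf window, chr12:85686470-85686769 (+ strand), holds TGACGT from base -98.
Batf: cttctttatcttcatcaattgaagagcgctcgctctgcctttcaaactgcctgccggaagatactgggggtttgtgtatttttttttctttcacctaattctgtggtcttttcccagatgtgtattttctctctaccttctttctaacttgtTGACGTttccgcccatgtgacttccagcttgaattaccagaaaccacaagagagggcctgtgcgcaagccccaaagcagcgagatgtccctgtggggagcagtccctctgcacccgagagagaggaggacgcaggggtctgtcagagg
The windows of Atf3, Batf3 and Fosl2 lie wholly inside these genes as annotated in GENCODE, so other starts of the 3 genes were not read. No match to these letters was found in the windows of Batf3, Junb, Fosb and Fosl2, nor in the Jund window, which ends before the Jund gene as annotated in GENCODE, and this describes these windows only.

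Per exon length (CPM per kb of exon union, RPKM), Fos was the most abundant of the 10 transcripts in every library. It made up 54.7% to 66.5% of the summed RPKM of the 10 genes in experiment 1 and 48.3% to 63.5% in experiment 2. Within the BATF family Batf3 led in every library, with 74.9% to 86.7% of the family's RPKM in experiment 1 and 69.0% to 86.6% in experiment 2. The RPKM of Batf3 was 3.22 to 6.75 times that of Batf in experiment 1. Batf2 was the rarest member, with 15 to 264 counts per library over both experiments, so its values carry the largest counting error.

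**Figure D1:**
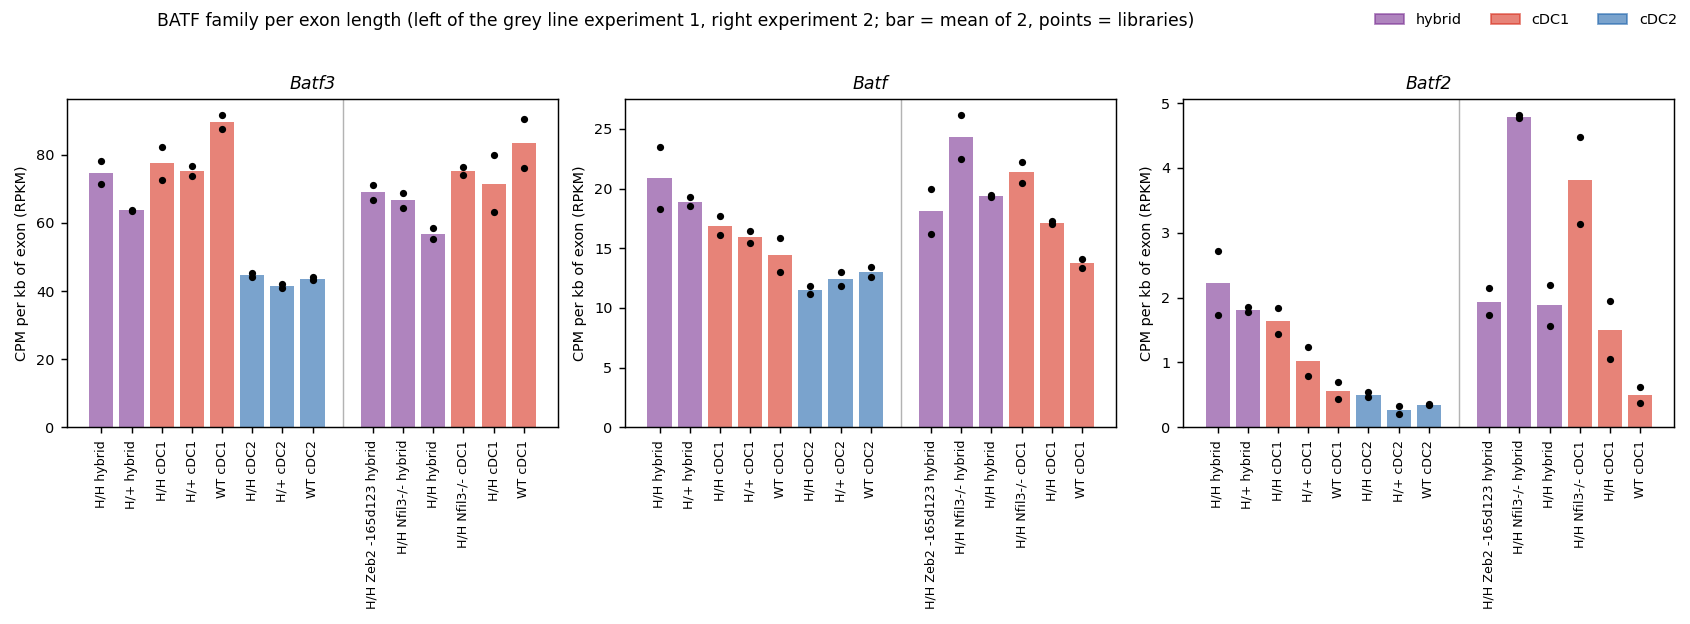
RPKM (CPM per kb of exon) of Batf3, Batf and Batf2 by group. Bars are means of 2 libraries and points the libraries, coloured by cell type, with experiment 1 left and experiment 2 right of the grey line. The axes differ between panels. Batf3 is at least 55.2 RPKM in all hybrid and cDC1 libraries and at most 45.2 RPKM in cDC2 libraries.

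In experiment 1 the order of Batf3 ran from WT cDC1 to H/H and H/+ cDC1 and H/H hybrid cells, then H/+ hybrid cells, and last the cDC2 groups. Of the 7 steps between neighbouring groups in that order, libraries overlapped in 3. For Jun all 7 steps overlapped, so that no neighbouring groups in its order were apart, and for Fos 6 of 7 did. In experiment 2 libraries of neighbouring groups overlapped in 4 of 5 steps for Batf3, Fos and Jund, but in 1 of 5 for Jun, Junb and Atf3. Groups were ordered by each gene's own means, and such steps were not counted over all genes. These counts therefore describe the members only and do not set them apart. Levels of the experiments were set by separate tables and are compared only within each. Group means of Fos spanned 924 to 1937 CPM in experiment 1 and 1641 to 2480 CPM in experiment 2, and those of Jund 11.5 to 15.7 CPM and 22.6 to 40.0 CPM, the narrowest relative span in experiment 1 (1.36 times). Batf2 had the widest, 8.37 times in experiment 1 and 9.65 times in experiment 2, followed by Fosl2 in experiment 1 (5.67 times). Batf3 was lowest in H/H hybrid cells in experiment 2, with 88.1 and 93.3 CPM.

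**Figure D2:**
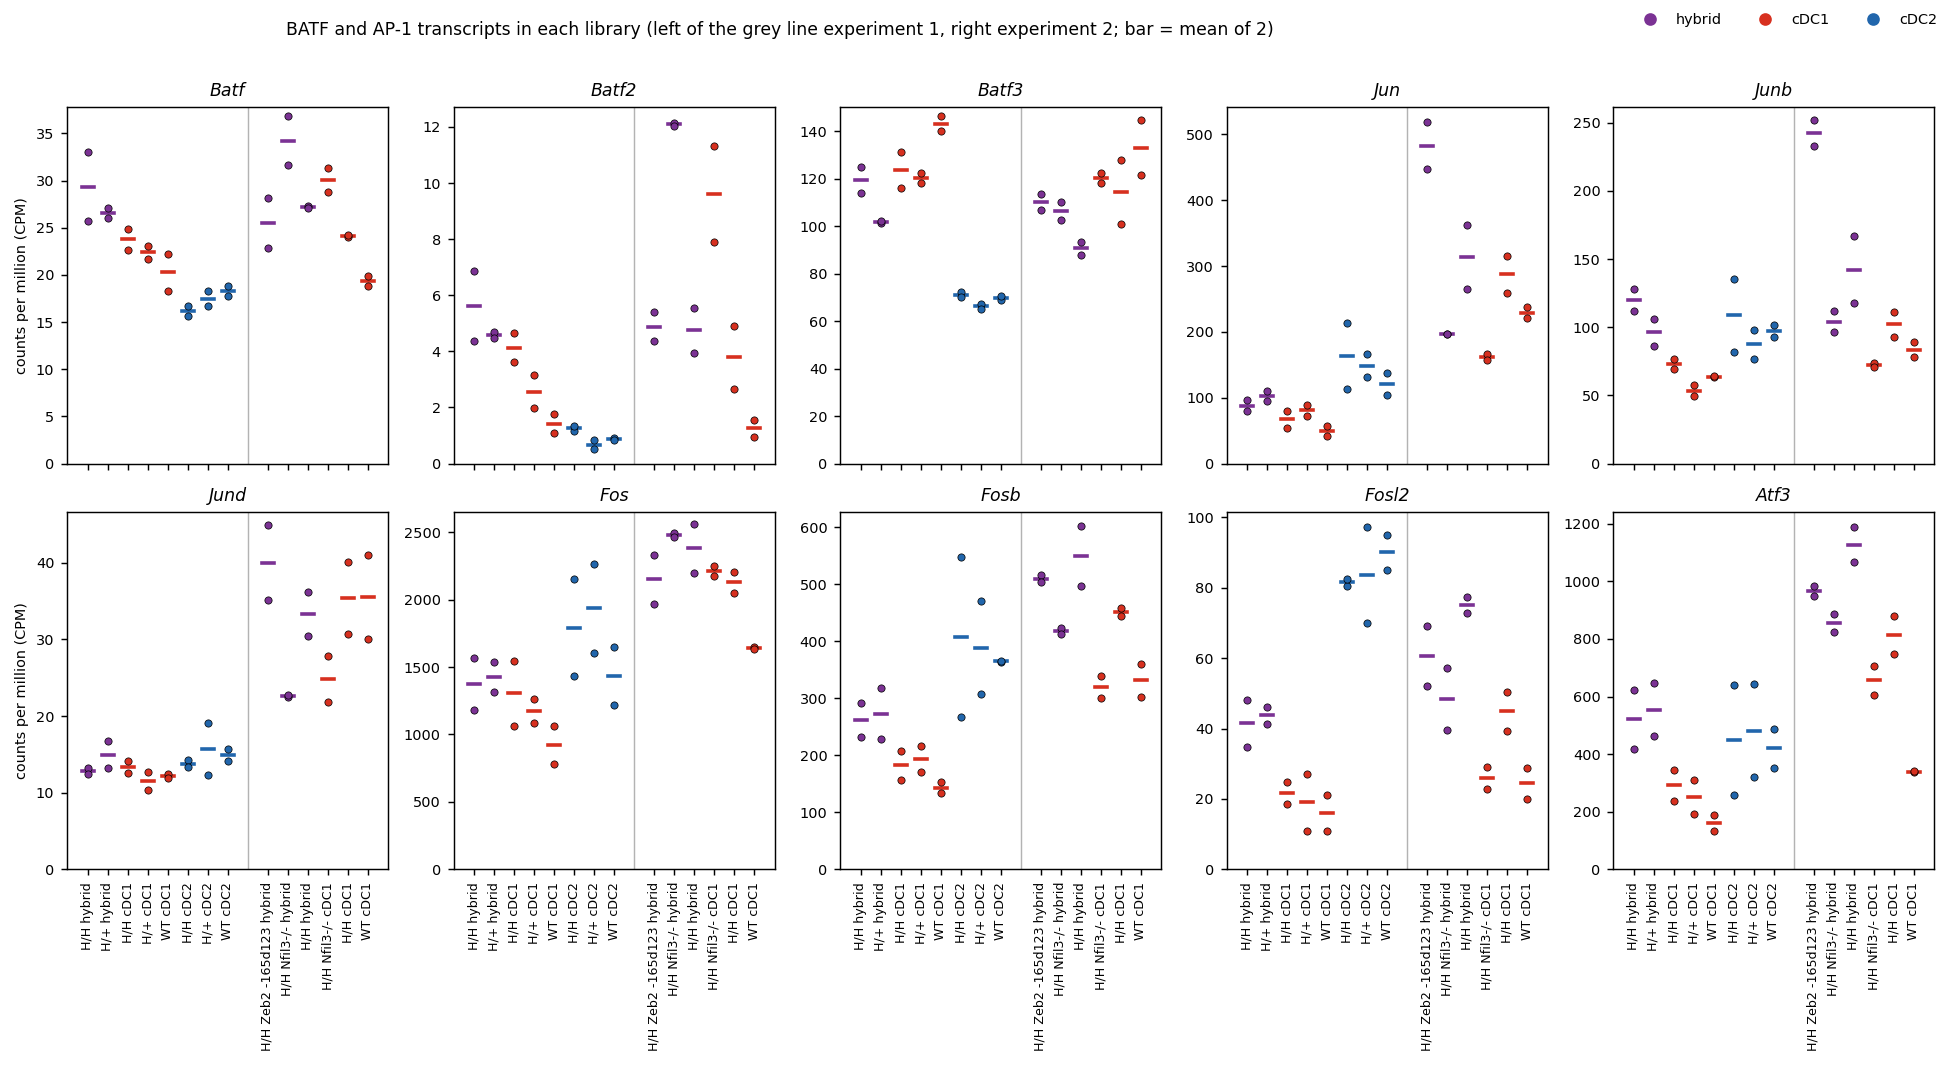
CPM of the 10 genes in each of the 28 libraries. Each point is a library and each bar the mean of 2, coloured by cell type, with experiment 1 left and experiment 2 right of the grey line. The y axes start at 0 and differ between genes. The BATF genes are lowest in cDC2, while Fosl2, Jun and Fosb are lowest in cDC1 of experiment 1.

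Batf3 was higher in cDC1 than in cDC2, and the AP-1 genes Jun, Junb, Fosb and Fosl2 were lower in cDC1. Batf3 had 146 and 140.0 CPM in WT cDC1, against 68.9 and 70.5 CPM in WT cDC2, with no overlap (2.05-fold higher, log2 fold change 1.04 ± 0.09, adjusted p = 1.74e-07, edgeR quasi-likelihood F test with Benjamini-Hochberg adjustment over all 16036 genes, ± is the SE, as for all tests below). cDC2 thus still held Batf3 transcripts at a level that ranked above Batf and Batf2 per exon length. Fosl2, which encodes the FOS relative FRA-2, had 10.8 and 20.98 CPM in WT cDC1, against 85.2 and 94.9 CPM in WT cDC2, the largest difference among the 10 (5.64-fold lower, log2 fold change -2.50 ± 0.43, adjusted p = 0.0011). Jun, the main dimer partner of FOS and BATF proteins, had 57.6 and 41.4 CPM in WT cDC1, against 137 and 104 CPM in WT cDC2 (log2 fold change -1.29 ± 0.32, adjusted p = 0.00753). Fosb, of the FOS family, had 153 and 134 CPM in WT cDC1, against 364 and 366 CPM in WT cDC2 (log2 fold change -1.35 ± 0.34, adjusted p = 0.00852). Junb, of the JUN family, differed least of the genes that passed, with 63.7 and 64.1 CPM in WT cDC1, against 92.9 and 102 CPM in WT cDC2 (log2 fold change -0.61 ± 0.20, adjusted p = 0.0226).

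Of the 10 members 5 passed the threshold of 0.05 between WT cDC1 and WT cDC2, where 44% of all genes did, so that the share by itself does not set the members apart. The median log2 fold change was -0.62 over the members and -0.07 over all genes. In H/+ cells 7 of 10 passed (all genes 38.3%) and in H/H cells 7 of 10 (all genes 36.7%). The same 4 AP-1 genes were lower and Batf3 higher in both, and Batf and Batf2 passed in addition. Fosl2 kept the largest fall, with a log2 fold change of -1.91 ± 0.42 in H/H cells (adjusted p = 0.00601) and -2.14 ± 0.43 in H/+ cells (adjusted p = 0.00311). Batf3 was higher by 0.80 ± 0.09 in H/H cells (adjusted p = 4.83e-06) and 0.86 ± 0.09 in H/+ cells (adjusted p = 1.88e-06). Batf2 had 4.64 and 3.62 CPM in H/H cDC1, against 1.17 and 1.35 CPM in H/H cDC2 (log2 fold change 1.71 ± 0.33, adjusted p = 0.000836). Batf had 24.9 and 22.7 CPM in H/H cDC1, against 16.7 and 15.7 CPM in H/H cDC2 (log2 fold change 0.55 ± 0.13, adjusted p = 0.00452). Fos did not pass in any genotype, with 1064 and 785 CPM in WT cDC1, against 1651 and 1222 CPM in WT cDC2 (log2 fold change -0.64 ± 0.28, adjusted p = 0.0861). Nor did Atf3, a stress-induced bZIP factor that restrains Toll-like receptor responses in mouse macrophages, with 187 and 131 CPM in WT cDC1, against 487 and 353 CPM in WT cDC2 (log2 fold change -1.40 ± 0.52, adjusted p = 0.0569). Both results depended on the model, since with a model term for Xist libraries both genes passed as lower in cDC1 in every genotype, Fos with adjusted p = 0.00192 in H/H and 3.75e-05 in H/+ cells and Atf3 with adjusted p = 0.026 in H/H and 0.001 in H/+ cells.

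When single libraries were left out, Batf3 passed in all 12 such fits over the 3 genotypes, and Fosl2 in 11 of 12. Fosl2 missed without H/H cDC1 replicate 1 (adjusted p = 0.0548). Junb in WT cells missed in all 4 fits, with adjusted p up to 0.114, and Jun in WT cells missed without WT cDC1 replicate 2 (0.0704) or WT cDC2 replicate 1 (0.054). Fosb in WT cells missed without WT cDC1 replicate 2 (0.0679). H/H cDC2 replicate 1 stood above replicate 2 for 6 AP-1 genes, with Jun at 214 and 113 CPM in replicates 1 and 2, and without it Junb, Jun and Fosb missed in H/H cells (adjusted p = 0.514, 0.0748 and 0.187). Jun and Fosb in H/H cells also missed without H/H cDC1 replicate 2 (0.0804 and 0.14), and Junb in H/H cells without H/H cDC1 replicate 1 or 2 or H/H cDC2 replicate 1. In H/+ cells Fosb missed without H/+ cDC1 replicate 1 or 2 or H/+ cDC2 replicate 1 (up to 0.239), and Junb without H/+ cDC1 replicate 1 or H/+ cDC2 replicate 2 (up to 0.115). In H/+ cells Batf and Jun missed in every one of the 4 fits, with adjusted p up to 0.213 and 0.235.

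Summed markers of monocytes and macrophages (14 genes, none at 0 in either group) were 1009.6 to 1074 CPM in WT cDC1 and 2178 to 2514 CPM in WT cDC2. Those of B cells (10 genes) were 532 to 588 CPM in WT cDC1, with 0 to 2 of them at 0 per library, and 754 to 886 CPM in WT cDC2, with none at 0. Ccr2 and Csf1r of the monocyte and macrophage list are also among the cDC2 markers used here, so its sum does not mark those cells alone. The part of such cells in the differences was not tested.

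**Figure D3:**
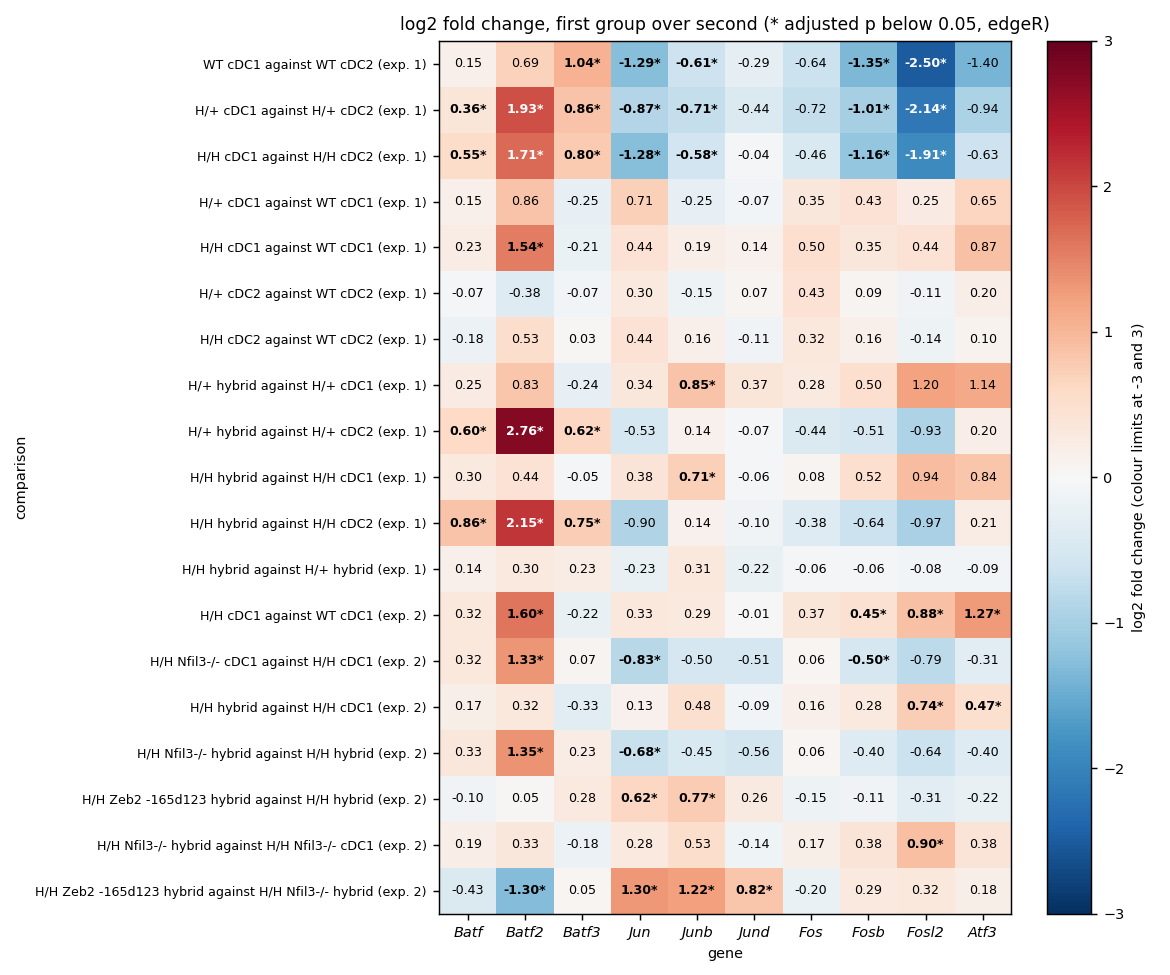
Log2 fold changes of the 10 genes (columns) in the 19 comparisons of groups (rows), each the first-named group over the second. Colour runs from -3 to 3, and an asterisk marks an adjusted p below 0.05 (edgeR). Fosl2 reaches -2.50 in WT cDC1 against WT cDC2 and Batf2 2.76 in H/+ hybrid cells against H/+ cDC2, while no asterisk stands in the Fos column.

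Hybrid DC had higher Batf, Batf2 and Batf3 than cDC2. Against cDC1 Junb, Fosl2 or Atf3 passed as higher, in calls that mostly did not hold when single libraries were left out. Against cDC2 of the same genotype 3 members passed in H/H cells (all genes 25.4%) and 3 in H/+ cells (all genes 19%), in both cases Batf, Batf2 and Batf3, all higher in hybrid cells. These shares by themselves do not set the members apart. Batf3 had 125 and 114 CPM in H/H hybrid cells, against 72.1 and 70.3 CPM in H/H cDC2 (log2 fold change 0.75 ± 0.09, adjusted p = 1.84e-05). Batf had 33.0 and 25.7 CPM in H/H hybrid cells, against 16.7 and 15.7 CPM in H/H cDC2 (log2 fold change 0.86 ± 0.13, adjusted p = 0.000236). Batf2 had 6.87 and 4.36 CPM in H/H hybrid cells, against 1.17 and 1.35 CPM in H/H cDC2 (log2 fold change 2.15 ± 0.33, adjusted p = 0.0002). In H/+ mice Batf3 had 101 and 102 CPM in hybrid cells, against 67.4 and 65.3 CPM in cDC2 (log2 fold change 0.62 ± 0.09, adjusted p = 0.000159). Batf2 showed the largest of these differences there, with 4.68 and 4.47 CPM in hybrid cells, against 0.825 and 0.517 CPM in cDC2 (6.78-fold higher, log2 fold change 2.76 ± 0.36, adjusted p = 5.5e-05), where the 15 and 24 counts of the cDC2 libraries limit the precision. Batf had 27.1 and 26.1 CPM in H/+ hybrid cells, against 18.3 and 16.7 CPM in H/+ cDC2 (log2 fold change 0.60 ± 0.13, adjusted p = 0.00506). All 6 differences passed in every fit that left out a library. In the main fit none of the 7 AP-1 genes passed against cDC2 in either genotype. That result depended on the model. With a term for Xist libraries Jun, Fosb and Fos passed as lower in H/H hybrid cells, and Fos and Jun in H/+ hybrid cells. Fosl2 had 34.9 and 48.1 CPM in H/H hybrid cells, against 80.6 and 82.5 CPM in H/H cDC2 (log2 fold change -0.97 ± 0.41, adjusted p = 0.117). In H/+ cells it had 41.4 and 46.0 CPM in hybrid cells, against 97.2 and 70.0 CPM in cDC2 (log2 fold change -0.93 ± 0.41, adjusted p = 0.155). Its libraries did not overlap in either genotype, and in each genotype Fosl2 passed as lower in hybrid cells in an alternative fit.

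Against cDC1 of the same genotype 1 member passed in experiment 1 in H/H cells (all genes 7.85%) and 1 in H/+ cells (all genes 16.5%), in both cases Junb, which was higher in hybrid cells. Junb had 112 and 128 CPM in H/H hybrid cells, against 76.9 and 69.2 CPM in H/H cDC1 (log2 fold change 0.71 ± 0.20, adjusted p = 0.0426). In H/+ mice it had 86.2 and 106 CPM in hybrid cells, against 49.8 and 57.5 CPM in cDC1 (log2 fold change 0.85 ± 0.20, adjusted p = 0.00955). The H/H call was lost whichever of the 4 libraries was left out (adjusted p up to 0.262), and the H/+ call without H/+ cDC1 replicate 1 (0.0964) or H/+ hybrid replicate 2 (0.0954). In experiment 2 the members that passed were Atf3 and Fosl2, 2 of 10 (all genes 12.5%). In neither experiment does the share by itself set the members apart. Fosl2 of experiment 2 had 72.9 and 77.5 CPM in H/H hybrid cells, against 50.5 and 39.4 CPM in H/H cDC1 (log2 fold change 0.74 ± 0.22, adjusted p = 0.0424). Atf3 had 1067 and 1188 CPM in H/H hybrid cells, against 747 and 880.2 CPM in H/H cDC1 (log2 fold change 0.47 ± 0.12, adjusted p = 0.0167). The Fosl2 call was lost in all 4 fits that left out a library, with adjusted p up to 0.226, and the Atf3 call without H/H cDC1 replicate 1 or H/H hybrid replicate 1 or 2, up to 0.172. In both experiments Batf, Fosb, Fosl2, Atf3 and Junb were higher in H/H hybrid cells than in H/H cDC1 with no overlap of libraries. How many of all genes did the same was not counted, so this list describes the members only and does not set them apart. In experiment 1 Junb alone of these genes passed. In experiment 1 Fosl2 and Atf3 had log2 fold change 0.94 ± 0.42, adjusted p = 0.244 and log2 fold change 0.84 ± 0.51, adjusted p = 0.425. Nfil3-/- hybrid cells against Nfil3-/- cDC1 gave 1 member, Fosl2 (all genes 5.28%), with 57.3 and 39.6 CPM in hybrid cells, against 29.1 and 22.8 CPM in cDC1 (log2 fold change 0.90 ± 0.22, adjusted p = 0.0346). That call was lost without Nfil3-/- cDC1 replicate 1 or 2 or Nfil3-/- hybrid replicate 1, with adjusted p up to 0.28. Summed markers of monocytes and macrophages (14 genes, none at 0) were 1767 to 2181 CPM in H/H hybrid cells and 864 to 919 CPM in H/H cDC1 of experiment 1. This list shares Ccr2 and Csf1r with the cDC2 markers, and the part of monocytes and macrophages in these differences was not tested.

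Batf3 did not pass between hybrid cells and cDC1. In H/H cells of experiment 1 the log2 fold change was -0.05 ± 0.09 (adjusted p = 0.83), in H/+ cells -0.24 ± 0.09 (adjusted p = 0.0801) and in H/H cells of experiment 2 -0.33 ± 0.13 (adjusted p = 0.108). In experiment 2 it passed without H/H cDC1 replicate 1 (adjusted p = 0.0362). Irf8, the partner of BATF3 at composite motifs, was lower in H/H hybrid cells than in H/H cDC1 in both experiments (-0.57, adjusted p = 0.0122 on the log2 scale in experiment 1 and -0.84, adjusted p = 0.000779 in experiment 2). Irf4, the partner that predominates in cDC2, was higher (1.17, adjusted p = 0.014 and 1.11, adjusted p = 0.0265). Between H/H and H/+ hybrid cells no member passed (all genes 0.131%), and the log2 fold changes lay between -0.23 and 0.31. At an unadjusted p below 0.05 there was 1 member, Batf3 (log2 fold change 0.23), and DESeq2 called 0.

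Batf2 rose in H/H cDC1 in both experiments, while Batf3 did not pass. Batf2, an interferon-inducible member of the family, had 4.64 and 3.62 CPM in H/H cDC1 and 3.14 and 2.00 CPM in H/+ cDC1, against 1.77 and 1.08 CPM in WT cDC1 of experiment 1. The 3 genotypes did not overlap. H/H cDC1 were 2.92-fold higher than WT cDC1 (log2 fold change 1.54 ± 0.33, adjusted p = 0.0124), and H/+ cDC1 against WT cDC1 gave log2 fold change 0.86 ± 0.33, adjusted p = 0.239. In experiment 2 Batf2 had 2.66 and 4.91 CPM in H/H cDC1, against 1.57 and 0.936 CPM in WT cDC1 (log2 fold change 1.60 ± 0.34, adjusted p = 0.00847). The counts behind these values were 94 to 133 in H/H cDC1, against 33 to 45 in WT cDC1 of experiment 1. Without H/H cDC1 replicate 1 or WT cDC1 replicate 2 in experiment 1 the call was lost (adjusted p = 0.123 and 0.182), and likewise without H/H cDC1 replicate 2 or WT cDC1 replicate 2 in experiment 2 (0.135 and 0.114).

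Batf3 had 131 and 116 CPM in H/H cDC1 and 122.5 and 118 CPM in H/+ cDC1, against 146 and 140.0 CPM in WT cDC1 of experiment 1. Both altered genotypes lay below WT with no overlap, and neither passed (H/H log2 fold change -0.21 ± 0.09, adjusted p = 0.253, H/+ log2 fold change -0.25 ± 0.09, adjusted p = 0.186). In experiment 2 it had 101 and 128 CPM in H/H cDC1, against 145 and 122 CPM in WT cDC1, which overlapped (log2 fold change -0.22 ± 0.13, adjusted p = 0.454). Over the same comparison Irf8 was lower in H/H cDC1 (-1.44, adjusted p = 9.2e-06 on the log2 scale in experiment 1 and -1.81, adjusted p = 4.21e-07 in experiment 2).

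In experiment 2 Atf3, Fosl2 and Fosb also rose in H/H cDC1, so that 4 of 10 members passed (all genes 6.32%). In the main fit of experiment 1 Batf2 alone passed among the members (1 of 10, all genes 4.17%). With a term for Xist libraries Atf3 and Fos passed there as well, both as higher in H/H cDC1. Atf3 had 747 and 880.2 CPM in H/H cDC1, against 337 and 339.7 CPM in WT cDC1 of experiment 2 (2.41-fold higher, log2 fold change 1.27 ± 0.12, adjusted p = 3.69e-06), and it passed in every fit that left out a library. In experiment 1 it had 345 and 238 CPM in H/H cDC1, against 187 and 131 CPM in WT cDC1, also without overlap (log2 fold change 0.87 ± 0.51, adjusted p = 0.507). Fosl2 had 50.5 and 39.4 CPM in H/H cDC1, against 20.0 and 28.8 CPM in WT cDC1 of experiment 2 (log2 fold change 0.88 ± 0.22, adjusted p = 0.0333), and missed without H/H cDC1 replicate 1 (0.249) or WT cDC1 replicate 1 (0.231). Fosb had 459 and 445 CPM in H/H cDC1, against 303 and 361 CPM in WT cDC1 (log2 fold change 0.45 ± 0.12, adjusted p = 0.0407), and missed without H/H cDC1 replicate 1 or 2 or WT cDC1 replicate 1 (adjusted p up to 0.317). Some other early response genes moved with them. In experiment 2, 634 of all 14504 genes rose and 282 fell. Of 27 immediate early and heat shock genes outside the group 6 rose and none fell there (median log2 fold change 0.30, all genes 0.0048). Among the 6 were Zfp36 (0.71, adjusted p = 0.00127), Dusp1 (0.62, adjusted p = 0.00278) and Egr1 (1.07, adjusted p = 0.00415). Summed cDC2 markers (16 genes) were 655 to 869 CPM in H/H cDC1, with 0 to 1 of them at 0 per library, and 255 to 275 CPM in WT cDC1 of experiment 2, with 1 at 0 in each library. The part of cell handling or of other cells in these differences was not tested.

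No member passed between H/+ and WT cDC1 (all genes 1.47%), between H/H and WT cDC2 (all genes 0.0811%) or between H/+ and WT cDC2 (all genes 0.0249%). At an unadjusted p below 0.05 there were 3 members (Batf3, Batf2 and Jun) in H/+ cDC1 and 0 in either cDC2 comparison, and DESeq2 called 0 in each. The effect of H/H in cDC1 minus that in cDC2 passed for none of the 10 (all genes 1.9%), with 1.02 ± 0.48 on the log2 scale for Batf2 (adjusted p = 0.496) and 0.41 ± 0.19 for Batf (adjusted p = 0.481), the 1 member with an unadjusted p below 0.05. DESeq2 called 0 for this difference as well.

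Loss of Nfil3, a bZIP repressor required early in the cDC1 lineage, went with higher Batf2 and lower Jun in both cell types of H/H mice. Batf2 had 11.3 and 7.91 CPM in Nfil3-/- cDC1, against 2.66 and 4.91 CPM in H/H cDC1 (2.52-fold higher, log2 fold change 1.33 ± 0.29, adjusted p = 0.019). In hybrid cells it had 12.1 and 12.0 CPM in Nfil3-/- cells, against 5.54 and 3.95 CPM in H/H cells (2.54-fold higher, log2 fold change 1.35 ± 0.29, adjusted p = 0.0154). The Nfil3-/- libraries held the highest Batf2 levels of experiment 2. Jun had 166 and 157 CPM in Nfil3-/- cDC1, against 259 and 316 CPM in H/H cDC1 (log2 fold change -0.83 ± 0.14, adjusted p = 0.00394). In hybrid cells it had 197 and 196 CPM in Nfil3-/- cells, against 266 and 363 CPM in H/H cells (log2 fold change -0.68 ± 0.14, adjusted p = 0.0139). For Jun the Nfil3-/- libraries of both cell types were below all other libraries of experiment 2. Fosb fell as well in cDC1, with 339.6 and 301 CPM in Nfil3-/- cDC1, against 459 and 445 CPM in H/H cDC1 (log2 fold change -0.50 ± 0.12, adjusted p = 0.0388).

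In all, 3 of 10 members passed in cDC1 (all genes 3.03%) and 2 of 10 in hybrid cells (all genes 3.73%). The effect of Nfil3-/- in hybrid cells minus that in cDC1 passed for none of the 10 (all genes 0.00689%), and for Batf2 it was 0.02 ± 0.42 on the log2 scale. No member had an unadjusted p below 0.05 there, and DESeq2 called 0. The Batf2 call in cDC1 was lost without Nfil3-/- cDC1 replicate 1 (adjusted p = 0.166) or H/H cDC1 replicate 1 (0.2) and the Jun call without Nfil3-/- cDC1 replicate 2 (0.0571). The Fosb call in cDC1 was lost in all 4 such fits (adjusted p up to 0.319), and with a term for the Xist libraries (0.111). In hybrid cells both calls were lost without Nfil3-/- hybrid replicate 1 or 2 or H/H hybrid replicate 2, with adjusted p up to 0.212 for Batf2 and 0.268 for Jun. Summed neutrophil markers (10 genes) were 29.7 to 38.0 CPM in Nfil3-/- cDC1, with 0 to 1 of them at 0 per library, and 1.34 to 1.38 CPM in H/H cDC1, with 3 to 6 at 0 per library (Camp, Elane and Retnlg in both). In hybrid cells they were 64.0 to 116 CPM in Nfil3-/- cells, with none at 0, and 17.9 to 20.8 CPM in H/H cells, with 1 at 0 in each library. Summed B cell markers were higher as well, at 681 to 684 CPM in Nfil3-/- and 554 to 659 CPM in H/H cDC1. In hybrid cells they were 816 to 1416 CPM in Nfil3-/- and 587 to 814 CPM in H/H cells. Erythroid and platelet markers were higher in Nfil3-/- cDC1 (56.5 to 127 against 10.2 to 11.9 CPM). Lower were T and NK cell markers in Nfil3-/- cDC1 and monocyte and macrophage markers in Nfil3-/- hybrid cells. The part of any such cells in the Batf2 levels was not tested. Among the other early response genes Egr1 fell in both cell types (-1.05, adjusted p = 0.0107 in cDC1 and -0.88, adjusted p = 0.0261 in hybrid cells) and Socs3, a feedback inhibitor of cytokine signalling, rose (1.00, adjusted p = 0.00618 and 1.09, adjusted p = 0.00237). The H/H cDC1 libraries were far apart for Egr1, at 136 and 235 CPM, against 88.5 and 90.8 CPM in Nfil3-/- cDC1. Both genes are single names from the list of 27 and do not describe the list.

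The Zeb2 -165d123 allele went with higher Jun and Junb in H/H hybrid cells. Jun had 447 and 518 CPM in Zeb2 -165d123 hybrid cells, against 266 and 363 CPM in H/H hybrid cells (1.54-fold higher, log2 fold change 0.62 ± 0.14, adjusted p = 0.0221). Junb had 252 and 233 CPM in Zeb2 -165d123 hybrid cells, against 117 and 167 CPM in H/H hybrid cells (1.7-fold higher, log2 fold change 0.77 ± 0.15, adjusted p = 0.00993). Both genes had their highest levels of experiment 2 there, and neither overlapped H/H hybrid cells. These were 2 of 10 members (all genes 4.03%), while Batf3 had 114 and 107 CPM in Zeb2 -165d123 hybrid cells, against 88.1 and 93.3 CPM in H/H hybrid cells (log2 fold change 0.28 ± 0.13, adjusted p = 0.301). The Jun call was lost without Zeb2 -165d123 hybrid replicate 2 (0.219) or H/H hybrid replicate 1 (0.395) and with a term for the Xist libraries (0.0598). The Junb call was lost without Zeb2 -165d123 hybrid replicate 1 (0.0769) or H/H hybrid replicate 1 (0.202). Of the 27 immediate early and heat shock genes outside the group, Ier2 and Dusp1 alone passed, both as higher, where 4.03% of all genes passed. The median log2 fold change of the 27 was 0.20, against -0.0016 over all genes. Dusp1, a phosphatase that switches off MAP kinases, had 1616 to 1672 CPM in Zeb2 -165d123 hybrid cells and 1069 to 1322 CPM in H/H hybrid cells (log2 fold change 0.46, adjusted p = 0.0375). Ier2 had 134 to 155 CPM in Zeb2 -165d123 hybrid cells and 88.6 to 112 CPM in H/H hybrid cells (log2 fold change 0.53, adjusted p = 0.0275). The summed level of the 27 genes did not overlap either, at 20649 to 23095 CPM in Zeb2 -165d123 hybrid cells and 17214 to 20004 CPM in H/H hybrid cells. The part of cell handling in the Jun and Junb levels was not tested.

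Set directly against Nfil3-/- hybrid cells, a comparison added after the other values were seen, 4 of 10 members passed (all genes 10.9%). Jun was 2.46-fold higher in Zeb2 -165d123 hybrid cells than in Nfil3-/- hybrid cells (log2 fold change 1.30 ± 0.15, adjusted p = 4.58e-05) and Junb 2.33-fold higher (log2 fold change 1.22 ± 0.16, adjusted p = 0.000136), and both passed in every fit that left out a library. Jund, the most evenly expressed JUN gene, had 44.9 and 35.2 CPM in Zeb2 -165d123 hybrid cells, against 22.5 and 22.7 CPM in Nfil3-/- hybrid cells (log2 fold change 0.82 ± 0.19, adjusted p = 0.0106). Batf2 was lower, with 4.37 and 5.40 CPM in Zeb2 -165d123 hybrid cells, against 12.1 and 12.0 CPM in Nfil3-/- hybrid cells (log2 fold change -1.30 ± 0.29, adjusted p = 0.00853). The Batf2 call was lost without Zeb2 -165d123 hybrid replicate 1 (0.0738), and the Jund call without that library or either Nfil3-/- one (adjusted p up to 0.111). Where 827 of all 14504 genes rose and 757 fell, 5 of the 27 other early response genes rose and 1 fell (median log2 fold change 0.44, all genes 0.03). Among them Egr1 had 253 to 267 CPM in Zeb2 -165d123 hybrid cells and 115 to 139 CPM in Nfil3-/- hybrid cells (log2 fold change 1.03, adjusted p = 0.00473). Ier2 had 134 to 155 CPM in Zeb2 -165d123 hybrid cells and 75.4 to 80.1 CPM in Nfil3-/- hybrid cells (log2 fold change 0.90, adjusted p = 0.000346). Summed neutrophil markers went the way of Batf2, at 14.1 to 29.6 CPM in Zeb2 -165d123 hybrid cells and 64.0 to 116 CPM in Nfil3-/- hybrid cells, with 2 to 3 of 10 at 0 per library in Zeb2 -165d123 hybrid cells and none in Nfil3-/- hybrid cells. The part of early response or of other cells in these differences was not tested. The comparisons of this experiment share the H/H libraries, so that H/H hybrid replicate 1 and 2 enter both the Zeb2 and the Nfil3 comparison.

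In experiment 1 Fos, Jun and Atf3 were lower in the library with Xist than in its partner without Xist in 8 of 8 groups. The median ratio of the library with Xist to the library without it was 0.739 for Fos (range 0.664 to 0.858), 0.777 for Jun (0.525 to 0.857) and 0.682 for Atf3 (0.403 to 0.726). Batf, Batf2, Jund and Fosb were lower in 7 of 8 groups, Batf3 in 6 of 8 by a median ratio of 0.967, Junb in 2 of 8 and Fosl2 in 1 of 8. Since these libraries are also replicate 2 of every group, Xist and replicate number cannot be told apart. With a term for these libraries in the fit (values are log2 fold changes), Fos and Atf3 passed between WT cDC1 and WT cDC2 (Fos -0.64 ± 0.10, adjusted p = 8.14e-05, and Atf3 -1.40 ± 0.18, adjusted p = 2.43e-05) and between H/H and WT cDC1 (Fos 0.49 ± 0.10, adjusted p = 0.0064, and Atf3 0.87 ± 0.18, adjusted p = 0.00909). Jun passed between H/+ and WT cDC1 (0.72 ± 0.14, adjusted p = 0.00819). In H/H hybrid cells against H/H cDC1 Atf3 passed (0.84 ± 0.17, adjusted p = 0.00764) and Junb no longer did (adjusted p = 0.0502). In H/H hybrid cells against H/H cDC2 Jun, Fosb and Fos passed as lower in hybrid cells (Jun -0.85 ± 0.13, adjusted p = 0.000198). In H/+ hybrid cells Fos and Jun passed as lower than in H/+ cDC2, and Atf3, Fosl2 and Batf2 passed as higher and Batf3 as lower than in H/+ cDC1 (Batf3 -0.24 ± 0.08, adjusted p = 0.0494).

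**Figure D4:**
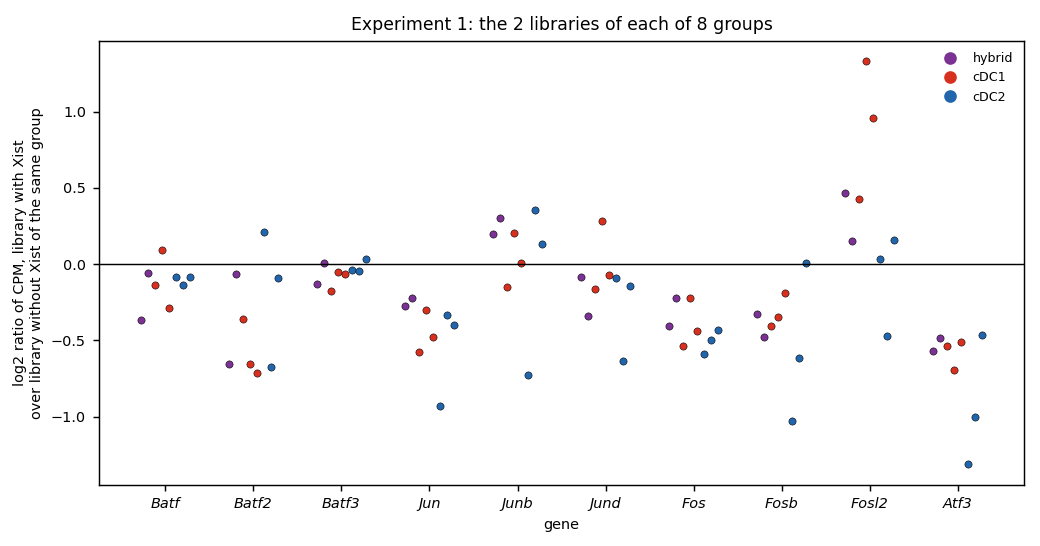
Log2 ratio of CPM in the library with Xist over the library without Xist of the same group, for the 8 groups of experiment 1 (points, coloured by cell type). The line marks equal levels. All 8 points lie below it for Jun, Fos and Atf3, and 1 of 8 does for Fosl2.

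In the main fit Fos passed in none of the 19 comparisons of groups, while with the term for Xist libraries it passed in several of experiment 1. Over those 19 comparisons Batf2 passed most often, as higher in 8 and lower in 1. Batf3 passed as higher in 5, the comparisons of cDC1 or hybrid cells with cDC2. The AP-1 genes shared their lower level in cDC1 with other early response genes. Of 27 immediate early and heat shock genes outside the group, 0 were higher and 15 lower in WT cDC1 than in WT cDC2, among them Zfp36 (-1.35, adjusted p = 1.01e-07), Nr4a1 (-1.61, adjusted p = 8.55e-07) and Klf4 (-2.45, adjusted p = 3.54e-06). Their median log2 fold change was -0.76, against -0.07 over all genes, of which 3291 were higher and 3759 lower of 16036. Against cDC2 5 of the 27 were lower in H/H hybrid cells, as were 2006 of all 16036 genes. Against cDC1 3 of the 27 were higher there in each experiment. Of all genes 840 of 16036 were higher in experiment 1 and 1050 of 14504 in experiment 2. The counts in hybrid cells do not by themselves set these genes apart.

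Among 21 kinases and phosphatases of the MAPK routes to AP-1, 4 were higher and 10 lower in WT cDC1 than in WT cDC2, with a median log2 fold change of -0.44. In this comparison 3291 of all 16036 genes were higher and 3759 lower. Mapk14 (-1.08, adjusted p = 9.99e-07), which encodes p38 alpha, and Map3k5 (-1.76, adjusted p = 4.19e-07), an upstream stress kinase, were lower, and Mapk9 (1.53, adjusted p = 7.52e-08), which encodes JNK2, was higher. Of 23 measured AP-1, ATF, CREB and MAF relatives 4 were higher and 9 lower (median -0.12), with Bach1 (-2.25, adjusted p = 3.46e-08) lower and Creb3 (0.81, adjusted p = 1.77e-06) higher. Among the 8 IRF genes Irf8 and Irf5 were higher and Irf4 lower. Irf8 (5.55, adjusted p = 1.16e-12), Irf5 (1.08, adjusted p = 1.33e-05) and Irf4 (-5.30, adjusted p = 2.46e-08) were the genes past the threshold. In H/H hybrid cells against H/H cDC1 of experiment 1, 5 of the 23 relatives rose and none fell, among them Maf (1.90, adjusted p = 0.000182), a macrophage factor, and Creb5 (2.03, adjusted p = 0.00274), a CRE-binding factor. There 840 of all 16036 genes rose and 419 fell.

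The genes with the pattern most like each member were sought over the 16 libraries of experiment 1 among 7734 genes, by Pearson correlation of log2 CPM, and their correlation over the 12 libraries of experiment 2 is given second. The libraries share their cell types and their replicate numbering, so these are descriptions. Batf3 was most like Gna15 (0.99 and 0.85), Psmb8 (0.99 and 0.52) and Lsr (0.98 and 0.68). Fosl2 was most like Stk17b (0.99 and 0.87), Coq10b (0.98 and 0.90) and Pip4k2a (0.98 and 0.56). Batf was most like Mt1 (0.96 and 0.82), Cd300e (0.95 and 0.95) and Dnase1l1 (0.95 and 0.43). Batf2 was most like Dnase1l1 (0.95 and 0.51), Cabp4 (0.94 and 0.89) and the B cell gene Ms4a1 (0.94 and 0.52). Jun had Fosb as its nearest gene (0.96 and 0.76), and Fosb had Pmaip1 (0.97 and 0.78). Atf3 had Dusp1 (0.94 and 0.86), which encodes a phosphatase of MAP kinases. Fos had Jun (0.93 and -0.08), a likeness that was absent in experiment 2. Junb had Ifnar2 (0.94 and 0.54), and Jund had Ncoa1 (0.86 and 0.12).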

How the data were processed

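Total RNA of sort-purified splenic dendritic cells was copied with a SMARTer Ultra Low kit, which does not mark strand, per the labels' protocols. The authors made expected counts (estimated counts per gene) and deposited them in 2 tables, 1 for each experiment, where 10.8% and 10.2% of the values are not whole. Per the submitters' processing notes the tools were bcl2fastq, DRAGEN and edgeR, with no versions. The aligner settings, the build and the strand used in counting are not given in the sources used here. A total of 287 repeated lines per table, with identical values, were dropped, and 55487 genes were kept. Gene positions come from GENCODE M21 (GRCm38), which holds 99.4% of the IDs. Promoter sequences come from RefSeq (GRCm38.p6), where 9 of 10 members had an entry.

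Counts were rounded and fitted for each experiment with all its libraries, 1 coefficient per group, in edgeR 4.0.16 (R 4.3.3), with TMM scaling, filterByExpr and the robust quasi-likelihood F test. P-values were adjusted by Benjamini-Hochberg over the 16036 genes of experiment 1 (8 residual degrees of freedom) and the 14504 of experiment 2 (6), with a threshold of 0.05. Standard errors are the absolute log2 fold change over the square root of F. Levels are compared between experiments by no test. The fit was run on simulated data, where libraries were drawn independently. That run held no shift shared by same-numbered libraries, so it does not cover the one seen in experiment 1. Nothing in the labels says more of the replicates than biological duplicates, and p-values measure the spread between these libraries. Intervals of counts were not used, and PCR reads without molecular identifiers are not independent molecules. The members, gene lists and comparisons were chosen with earlier results of these data known. All 10 members are named, and genes of the other lists are named from those past the threshold with the smallest p, except for 1 gene that is not reported here. Similar genes are the 3 with the highest correlation of log2 CPM (prior count 2) in experiment 1. Alternatives were another scaling, no filter on low counts, only the groups compared, DESeq2 1.42.0, a replicate block, a term for libraries with Xist, and leaving out each library.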

Additional observations from a re-analysis of the deposited data

How the results depend on the processing

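Of 2180 alternative fold changes of the members, 1902 kept their direction and side of the threshold, 83 gained the threshold and 93 lost it in the same direction, and 102 changed sign without passing the threshold in either fit. Among these, the log2 fold change of Fosl2 in H/+ against WT cDC1 lay between -0.57 and 0.81 and that of Atf3 in H/H cDC1 against H/H cDC2 between -1.14 and 0.18 when single libraries were left out. The labels do not say what a replicate number marks. The correlation of same-numbered deviations was positive in all 28 group pairs of experiment 1 (0.04 to 0.34) and above 0.1 in 24 of them. It was above 0.1 in 2 of 15 pairs of experiment 2 (-0.21 to 0.23). Same-numbered libraries of experiment 1 thus shared part of their deviations. The main fit held no block in either experiment and left these shared deviations in the spread, so members that missed there can pass with the block. In experiment 1 the replicate block equals the term for Xist libraries, and with either of them the members past the threshold were 1 against 0 for H/+ against WT cDC1, 3 against 1 for H/H against WT cDC1, 5 against 1 for H/+ hybrid against H/+ cDC1, 5 against 3 for H/+ hybrid against H/+ cDC2 and 6 against 3 for H/H hybrid against H/H cDC2. In experiment 2 the Xist term left 1 of 2 for Zeb2 -165d123. When the fit held no other groups than those set against each other, which leaves fewer libraries to estimate the spread, there were 4 against 7 for H/H cDC1 against H/H cDC2, 5 against 3 for H/+ hybrid against H/+ cDC2 and 2 against 1 for H/H hybrid against H/H cDC1 in experiment 1, and 2 against 4 for H/H against WT cDC1, 6 against 2 for Nfil3-/- hybrid against H/H hybrid and 4 against 1 for Nfil3-/- hybrid against Nfil3-/- cDC1 in experiment 2. DESeq2 called 3 against 1 for H/+ hybrid against H/+ cDC1, 4 against 2 for Nfil3-/- hybrid against H/H hybrid and 4 against 1 for Nfil3-/- hybrid against Nfil3-/- cDC1. Without the filter on low counts there were 5 against 3 for Nfil3-/- cDC1 against H/H cDC1, 4 against 2 for Nfil3-/- hybrid against H/H hybrid and 3 against 1 for Nfil3-/- hybrid against Nfil3-/- cDC1. The cause of these differences was not tested. When single libraries were left out, the counts ranged from 2 to 4 for WT cDC1 against WT cDC2, 3 to 5 for H/+ cDC1 against H/+ cDC2, 4 to 7 for H/H cDC1 against H/H cDC2, 0 to 1 for H/H against WT cDC1 in experiment 1 and 2 to 3 in experiment 2, 0 to 2 for H/+ hybrid against H/+ cDC1, 0 to 0 for H/H hybrid against H/H cDC1 in experiment 1 and 0 to 1 in experiment 2, 3 to 5 for H/H hybrid against H/H cDC2, 1 to 2 for Nfil3-/- against H/H cDC1, 0 to 2 for Nfil3-/- against H/H hybrid, 0 to 2 for Zeb2 -165d123 against H/H hybrid and 0 to 1 for Nfil3-/- hybrid against Nfil3-/- cDC1.

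With 2 libraries per group, a fit that leaves 1 out holds a group with a lone library, assumed to vary like the other groups. A call lost in such a fit therefore need not rest on the library left out. Batf2, with 15 to 264 counts per library, is the member that depth limits most. Leaving out a library also lowers the degrees of freedom of every comparison.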
